A study of Homo sapiens with 6 samples.

Results

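The kallikreins are secreted serine proteases whose genes lie side by side in a cluster on human chromosome 19. Probe sets were taken where the platform annotation listed a single symbol, KLK1, KLK2, KLK3, KLK4, KLK5, KLK10, KLK11, KLK12, KLK13 or KLK15, which gave 34 of 49386 probe sets and 10 of 18239 genes. They were measured in LNCaP, an established line of androgen-responsive prostate adenocarcinoma cells, cultured in F12 medium that held 7% fetal bovine serum. Total RNA of 3 control samples and 3 samples exposed to 40 µM urolithin A for 24 h was measured on Human Genome U219 arrays (Affymetrix), which carry a set of short probes for each transcript. The sample titles call the controls untreated, and the treatment protocol names saline. Gut bacteria form urolithin A from ellagitannins of plants. All 6 arrays are of the same cell line, and separate cultures are not stated in the labels. Each p-value below measures the spread between these arrays alone, and that spread may be technical.

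Kallikreins are made as inactive precursors and become active when another protease removes a short propeptide. In the prostate the best known is KLK3, prostate-specific antigen, which liquefies semen by cutting the semenogelins and is followed in blood as a marker of prostate disease. KLK2 can cut the KLK3 precursor, and KLK4 is a further prostate kallikrein that also processes enamel proteins during tooth formation. Transcription of KLK2, KLK3 and KLK4 in prostate cells is known to follow androgen, through hormone response elements in a promoter and an upstream enhancer in the case of KLK3.

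The deposited values are on a log2 scale and were centred, probe set by probe set, on the median of the 3 control arrays. Differences between arrays can therefore be read and levels cannot, so that a probe set near background cannot be told from a well detected one. The array medians over all features ranged from -0.0013 to 0.014. The authors' normalization and the centring hold them close to 0, so they do not show how alike the arrays were. The spread of gene values around the group means had an SD of 0.100 to 0.116 on the 6 arrays.

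Of the kallikrein promoters, those of KLK3 and KLK2 are shown because they held the closest matches to a steroid hormone response element, that of KLK4 because the gene fell beside them, and that of KLK15 as a neighbour of KLK3 that did not pass. Each covers the 250 bases before the annotated start of the gene (RefSeq, GRCh38.p14) and is written from 5′ to 3′. They lie at chr19:50854665-50854914 on the plus strand for KLK3, chr19:50873189-50873438 on the plus strand for KLK2, chr19:50911396-50911645 on the minus strand for KLK4 and chr19:50833575-50833824 on the minus strand for KLK15. Capitals mark the window closest to the motif of that element where at most 3 of its 12 defined bases differ. This motif has 15 positions, the arm AGAACA, a spacer of 3 bases of any kind and the reverse complement of the arm.
KLK3: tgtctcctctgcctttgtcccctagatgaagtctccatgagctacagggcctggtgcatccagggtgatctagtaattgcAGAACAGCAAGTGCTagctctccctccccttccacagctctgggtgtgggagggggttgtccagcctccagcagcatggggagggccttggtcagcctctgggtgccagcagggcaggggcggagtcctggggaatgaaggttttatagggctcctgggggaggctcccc
KLK2: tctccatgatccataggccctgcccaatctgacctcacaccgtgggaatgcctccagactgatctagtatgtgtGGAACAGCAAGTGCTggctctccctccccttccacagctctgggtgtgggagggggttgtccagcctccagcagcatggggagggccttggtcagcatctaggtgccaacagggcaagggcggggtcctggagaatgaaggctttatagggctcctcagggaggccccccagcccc
KLK4: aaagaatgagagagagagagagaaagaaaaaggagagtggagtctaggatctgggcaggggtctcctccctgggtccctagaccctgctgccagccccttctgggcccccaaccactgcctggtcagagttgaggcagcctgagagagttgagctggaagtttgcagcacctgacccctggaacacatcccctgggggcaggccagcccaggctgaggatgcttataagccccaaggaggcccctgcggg
KLK15: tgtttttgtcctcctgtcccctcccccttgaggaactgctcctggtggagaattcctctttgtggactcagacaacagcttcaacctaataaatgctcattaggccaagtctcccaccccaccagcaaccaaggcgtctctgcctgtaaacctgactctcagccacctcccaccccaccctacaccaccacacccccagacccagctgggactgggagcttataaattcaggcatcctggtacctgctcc

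The motif reads alike on both strands. RefSeq promoters were listed for 9 of the 10 genes, in 14 entries. In KLK3 the window from -170 to -156, counted from the base before the start, differed from the motif at 2 bases, T10A and T13G, with positions counted from 1 at the 5′ end of the motif and the motif's base written first. Windows with at most 2 differing bases were found in 1.18% of 35114 promoters. The window of KLK2, from -176 to -162, carried the same pair and in addition A1G, and at most 3 differing bases were found in 9.17% of the promoters. Set against the KLK3 window, that of KLK2 differed only by A1G. The closest windows of KLK4 and KLK15 at these starts differed at 5 bases, and 85.4% of all promoters held a window at least as close. Among the other kallikreins the closest windows, in KLK10 and KLK12, differed at 4 bases, which 42% of promoters matched or bettered. The 6 bases AGAACA on either strand, found in 12.4% of promoters, were present in KLK3 alone among the 9 genes.

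Over their whole length the KLK3 and KLK2 stretches aligned with 79.2% identical positions (205 of 259 alignment columns) and shared an unbroken run of 80 bases. KLK3 aligned with KLK4 at 46.4% and with KLK15 at 49.3%, with longest shared runs of 9 and 8 bases. The letters TTATA on either strand, part of many TATA boxes, occurred in the stretches of KLK2, KLK3, KLK4 and KLK15 shown above and in that of KLK5, against 18.9% of all promoters. These matches describe the sequence, and binding was not measured.

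After urolithin A, 3 of the 10 kallikrein genes fell, KLK2, KLK3 and KLK4, and none rose. Across all 18239 genes, 5.31% fell and 4.85% rose at a Benjamini-Hochberg adjusted p under 0.05 in limma. The median log2 change was -0.10 over the 10 kallikreins and 0.01 over all genes. The same 3 kallikreins were the ones whose urolithin A arrays all lay below the control arrays, which held for 13.7% of all genes. Lower signal per array does not separate fewer cells that express a gene from less RNA per cell.

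KLK2 (gene ID 3817), the kallikrein that can activate KLK3, had the deepest fall of the family. Its mean over 12 probe sets was -0.26, -0.00080 and 0.22 on the control arrays, in the order of replicates 1, 2 and 3 that is kept below, and -2.25, -1.79 and -2.20 on the urolithin A arrays. All 3 treated arrays lay far below all controls, with replicate 2 the least low, and the group means were -0.013 ± 0.24 and -2.08 ± 0.25 (SD, n = 3). KLK2 fell 4.19-fold (log2 change -2.07, SE 0.15, 95% interval of the fold 3.31 to 5.31, adjusted p = 0.000315 in limma). It was rank 6 from the bottom among all genes.

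KLK3 (gene ID 354), which codes for prostate-specific antigen, fell to a smaller extent. The mean of its 7 probe sets was -0.10, -0.0028 and 0.28 in the control arrays and -0.99, -0.87 and -0.90 in the urolithin A arrays. The treated arrays lay within a narrow band well below the controls, among which replicate 3 was highest. The group means were 0.06 ± 0.20 and -0.92 ± 0.06 (SD, n = 3). The fall was 1.97-fold (log2 change -0.98, SE 0.10, interval of the fold 1.68 to 2.31, adjusted p = 0.00101), at rank 81 from the bottom.

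KLK4 (gene ID 9622) fell as well. Its control arrays stood at -0.18, 0 and 0.32 and its urolithin A arrays at -1.09, -0.72 and -0.86, and the groups did not overlap. Their means were 0.05 ± 0.25 and -0.89 ± 0.18 (SD, n = 3). KLK4 fell 1.91-fold (log2 change -0.94, SE 0.14, interval of the fold 1.54 to 2.37, adjusted p = 0.00468), at rank 90 from the bottom. Without moderation of the variances the KLK4 call was lost (adjusted p = 0.0902).

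**Figure D1:**
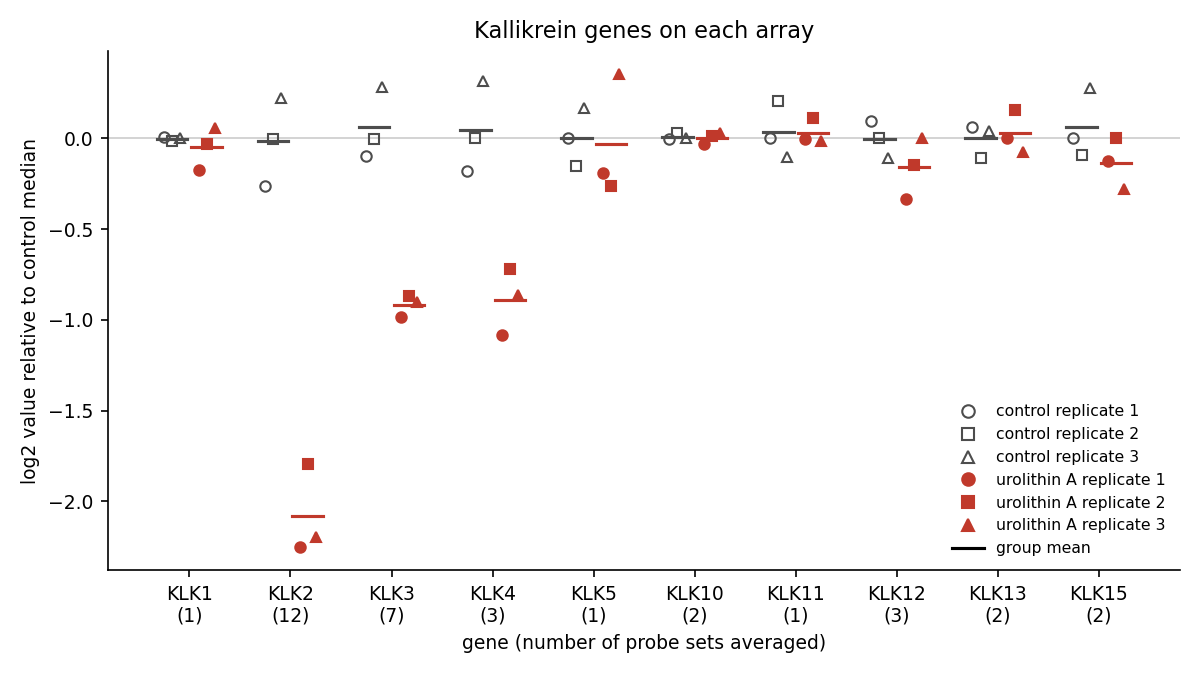
Log2 values of the 10 kallikrein genes relative to the control median (vertical axis) on 3 control arrays (open grey) and 3 urolithin A arrays (filled red). Bars are group means, symbols mark the replicate number and the number of probe sets averaged stands under each gene. The urolithin A arrays of KLK2 lie between -2.25 and -1.79 and those of KLK3 and KLK4 between -1.09 and -0.72, below all controls, while groups overlap for the other 7 genes.

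The remaining 7 kallikreins did not pass, had no unadjusted p under 0.05 in limma, and their groups overlapped. KLK15, which can activate the KLK3 precursor and whose gene lies on the other side of KLK3, had control values of 0, -0.090 and 0.28 and urolithin A values of -0.12, 0.0024 and -0.28. Its log2 change was -0.20 (SE 0.11, 95% interval -0.45 to 0.06, adjusted p = 0.337). KLK12 stood at 0.09, 0.00083 and -0.11 in the controls and at -0.33, -0.15 and 0.0045 with urolithin A, and replicate 3 of the treated arrays lay within the control range. Its log2 change was -0.15 (95% interval -0.38 to 0.07, adjusted p = 0.399).

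KLK1, the tissue kallikrein that releases kinins from kininogen, had controls between -0.01 and 0.0095, treated arrays between -0.18 and 0.06 and a log2 change of -0.05 (95% interval -0.22 to 0.12). KLK5, which starts the protease cascade of shedding skin, had -0.04 with the widest interval of the family, from -0.40 to 0.32, and its urolithin A replicate 3, at 0.35, stood above the other arrays of that group. KLK10, KLK11 and KLK13 had log2 changes of -0.0057, -0.0028 and 0.03, with intervals from -0.14 to 0.13, from -0.21 to 0.20 and from -0.16 to 0.22. The intervals of these 7 gene means thus reach no lower than -0.45. Intervals of single probe sets reached lower, such as -0.69 for 11742160_a_at of KLK12 and -0.68 for 11742319_a_at of KLK15. Because levels were removed by the centring, the values do not say whether LNCaP cells expressed these 7 genes.

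The differences between KLK2, KLK3 and their neighbours were read within each array, which cancels anything that shifts both genes alike. KLK2 minus KLK3 was -0.16, 0.0020 and -0.06 in the control arrays and -1.26, -0.93 and -1.30 in the urolithin A arrays. In gene means the KLK2 change thus exceeded that of KLK3 by 2.13-fold (difference of log2 changes -1.09), with no overlap between the groups of arrays. Single probe sets of the genes did overlap in their log2 changes, from -2.55 to -0.89 in KLK2 and from -2.18 to -0.67 in KLK3. On the gene means an exact two-sided permutation test gave p = 0.1 (adjusted p = 0.15 over 3 comparisons). That is the smallest p this test can give with 3 against 3 arrays, so it cannot reach 0.05 here.

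KLK4 minus KLK3 ranged from -0.08 to 0.03 in the control arrays and from -0.10 to 0.15 in the urolithin A arrays. Those ranges overlapped, and the difference of changes was 0.04 (exact permutation p = 0.6, adjusted p = 0.6). Its sign turned when the median of the probe sets was used (-0.12). KLK15 minus KLK3 was 0.10, -0.09 and -0.0028 in the controls and 0.86, 0.87 and 0.62 with urolithin A, a difference of 0.78 without overlap (exact permutation p = 0.1, adjusted p = 0.15).

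KLK2, KLK3 and KLK4 also varied together within the groups. Control replicate 1 lay below its group mean in all 3 genes, by -0.25, -0.16 and -0.23, and control replicate 3 above it, by 0.24, 0.22 and 0.27. Among the treated arrays replicate 1 was lowest and replicate 2 highest in each of these genes. This order was not confined to the kallikreins. Of the fallen genes in the lists below, TMPRSS2 had it in both groups (-0.10, 0 and 0.40, then -2.20, -1.64 and -1.79), and SPDEF, FN1 and DSC1 did not. Over the 6 deviations from the group means the correlation was 0.80 between KLK2 and KLK3, 0.92 between KLK2 and KLK4 and 0.94 between KLK3 and KLK4. These values describe 6 arrays that the genes share, and probe sets of KLK2 and KLK3 may share signal, since the transcripts are close copies.

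On the level of single probe sets, 22 of the 34 kallikrein probe sets fell and none rose, against 4.40% and 4.01% of all 49293 probe sets tested. They comprised all 12 probe sets of KLK2, all 7 of KLK3 and all 3 of KLK4. Without moderation 13 of the 34 fell. Urolithin A arrays lay wholly below the controls in 23 probe sets, a pattern seen in 13.5% of all probe sets. Of the 12 kallikrein probe sets that did not pass, 1 had an unadjusted p under 0.05, and it was also the one separated beyond the 22. This was 11742160_a_at of KLK12, with control values of 0.34, -0.10 and 0 and urolithin A values of -0.45, -0.21 and -0.30 (log2 change -0.40, adjusted p = 0.0962). The other 2 probe sets of KLK12 had log2 changes of -0.03 each.

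The probe sets of KLK2 differed in depth. Their log2 changes ran from -2.55 (5.86-fold lower) to -0.89 (1.85-fold lower), with a median of -2.35. The deepest was 11751771_a_at, at -0.12, 0 and 0.28 in the controls and -2.71, -2.14 and -2.63 with urolithin A. Among the shallowest was 11729588_at, at 0, -0.17 and 0.21 in the controls and -1.31, -0.82 and -1.26 with urolithin A. The neighbouring probe sets 11760620_a_at and 11760621_x_at differed from the rest in their controls, since control replicate 1 stood at -0.69 and -0.74. Their changes were -0.89 (adjusted p = 0.0273) and -1.54 (adjusted p = 0.0047).

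In KLK3 a single probe set stood apart from the other 6. It was 11740322_at, which had control values of -0.56, 0 and 0.99 and urolithin A values of -2.37, -2.14 and -1.59. Its control arrays were spread over a wide range, yet its treated arrays all lay lower, with a log2 change of -2.18 (SE 0.35, adjusted p = 0.0077). The other 6 probe sets of KLK3 had changes between -0.95 and -0.67, such as 11740321_a_at, whose urolithin A arrays stood at -0.95, -0.84 and -0.89. With the median of the probe sets in place of the mean, the log2 change was -0.78 for KLK3 and -2.30 for KLK2. The 3 probe sets of KLK4 had changes of -0.97, -0.95 and -0.89. Which exons or transcript forms each probe set reads was not examined.

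Affymetrix marks probe sets that can share sequence with other genes by names ending in _s_at or _x_at. Of the 12 KLK2 probe sets, 6 carried such a mark, with a median log2 change of -2.35, and the others had a median of -2.27. In KLK3 the 2 marked probe sets had a median of -0.81, against -0.76 for the remaining 5.

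**Figure D2:**
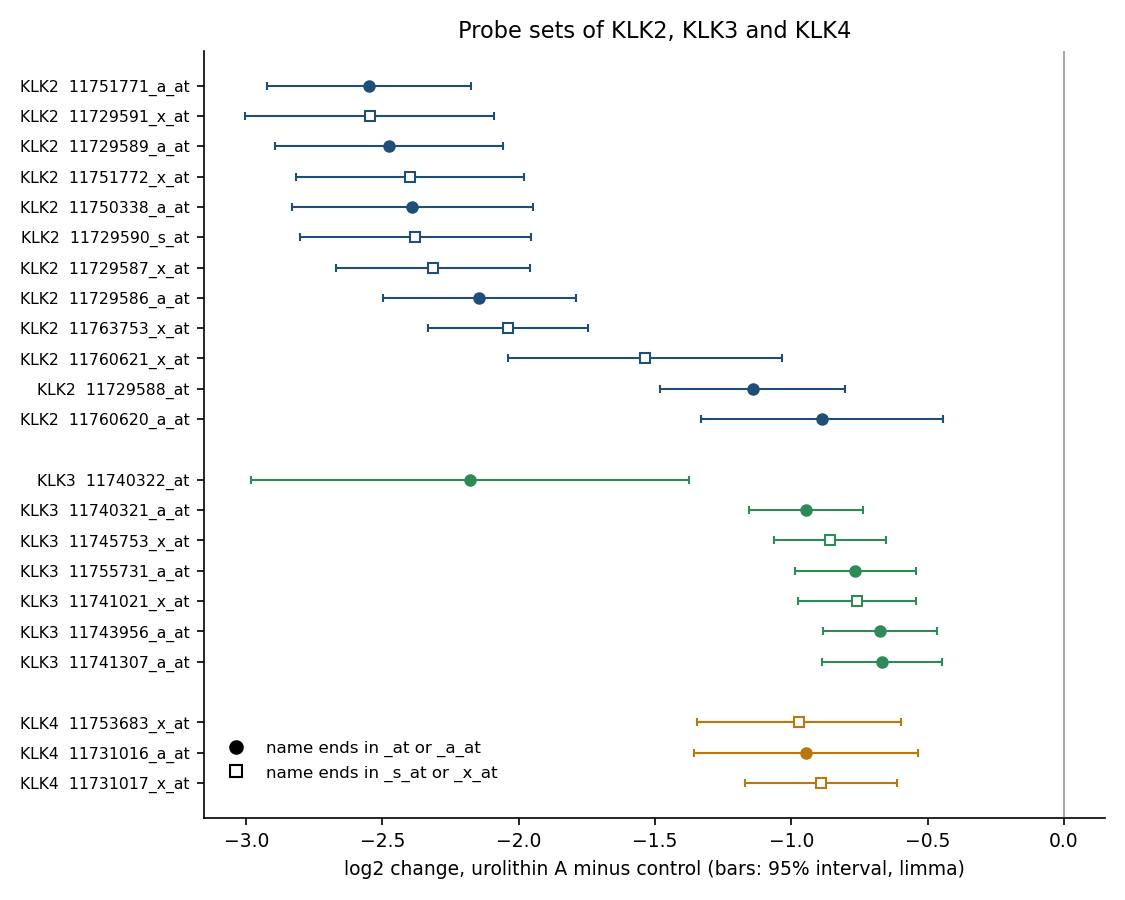
Log2 change, urolithin A minus control (horizontal axis, with 95% intervals from limma, n = 3 arrays a group), of each probe set of KLK2, KLK3 and KLK4, sorted by depth within a gene. Open squares are names that end in _s_at or _x_at. KLK2 spans -2.55 to -0.89, and 11740322_at at -2.18 lies apart from the other 6 probe sets of KLK3.

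The order of the genes along the chromosome, taken from the RefSeq gene table, put the genes that fell close together. From KLK1 the cluster runs through KLK15, KLK3, KLK2, the transcribed pseudogene KLKP1, KLK4 and KLK5, and on to KLK14. KLK3, KLK2 and KLK4 are thus neighbours apart from KLKP1. Of the 13 measured genes that lie within or beside the cluster and are not among the 10, 1 was higher and none lower, near the 4.85% higher and 5.31% lower over all genes. The 8 measured genes beyond the ends of the cluster, SHANK1, CLEC11A, GPR32, ACP4, CTU1, SIGLEC9, SIGLEC7 and SIGLECL1, had log2 changes from -0.12 to 0.07, and none passed or had an unadjusted p under 0.05 in limma.

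The gene that was higher was KLKP1, which lies between KLK2 and KLK4. Its only probe set stood at 0, -0.04 and 0.30 in the controls and at 0.50, 0.61 and 0.43 with urolithin A. The treated arrays all lay above the controls, of which replicate 3 came nearest. KLKP1 rose 1.34-fold (log2 change 0.42, SE 0.10, adjusted p = 0.033). The call was lost when any single array other than control replicate 3 was left out (adjusted p from 0.0519 to 0.11), with a trended and robust prior (adjusted p = 0.0641), without moderation (adjusted p = 0.166) and in the fit of single probe sets (adjusted p = 0.0531).

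KLK6, KLK7, KLK8 and KLK14, the other kallikreins with probe sets of their own, did not pass, at log2 changes of -0.07, -0.10, -0.06 and 0.21. The probe sets of KLK14 disagreed. For 11762819_at the controls stood at 0, -0.11 and 0.07 and the urolithin A arrays at 0.47, 0.59 and 0.36, a rise of 0.49 (SE 0.10, adjusted p = 0.0176). The other KLK14 probe set, 11735529_s_at, had a change of -0.07. The KLK14 mean passed without the probe sets named _s_at or _x_at (adjusted p = 0.00964) and without moderation (adjusted p = 0.0398). The 5 probe sets listed for both KLK8 and KLK9 had changes between -0.10 and 0.06 and did not pass.

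**Figure D3:**
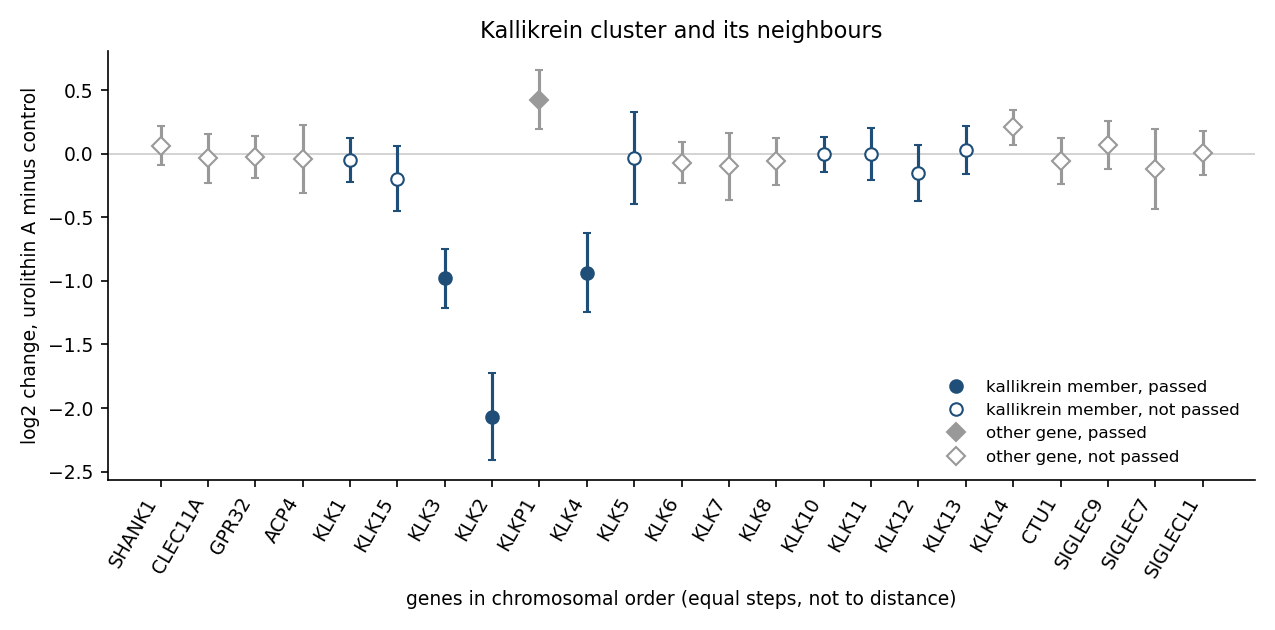
Log2 change, urolithin A minus control (vertical axis, gene means with 95% intervals, n = 3 arrays a group), of the measured genes in chromosomal order at equal steps. Blue circles are the 10 kallikreins chosen, grey diamonds other genes, and filled symbols passed. KLK3, KLK2 and KLK4 lie below 0, with KLKP1 above 0 between them.

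Of 14 measured transcription factors and co-regulators that act on kallikrein genes in prostate cells, SPDEF fell and CREBBP rose (1 gene each), while 12 did not pass. Over all genes 5.31% fell and 4.85% rose, so 1 of 14 in each direction is near the background. Their median log2 change was 0.04. The 6 other genes of the list are not analysed here. SPDEF, an epithelial ETS factor that can act on the KLK3 promoter, stood at 0, -0.18 and 0.32 in the controls and at -1.18, -1.04 and -1.01 with urolithin A. All treated arrays lay lower, and SPDEF fell 2.17-fold (log2 change -1.12, SE 0.12, adjusted p = 0.00124), a call lost without moderation (adjusted p = 0.0556).

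CREBBP, a histone acetyltransferase recruited by many transcription factors, rose 1.24-fold (adjusted p = 0.0487). That call was kept in only 1 of 15 alternative settings, the one without urolithin A replicate 2 (adjusted p = 0.0371), and the change was 0.17 with the median of its probe sets, against 0.31 with their mean. The pioneer factor FOXA1 had a log2 change of 0.16 (adjusted p = 0.183), HOXB13 0.05, GATA2 0.08 and the chaperone gene HSP90AA1 0.09, none of which passed. The co-chaperone gene PTGES3 had a change of -0.23 just short of the threshold (adjusted p = 0.0504). GRHL2, a further gene of the list that did not pass, had -0.22 (adjusted p = 0.0639).

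Among 16 other trypsin-like proteases, which include enzymes that activate or are activated by kallikreins, 1 fell, which is near the 5.31% of all genes that fell, and the median change of the list was 0.0035. The single gene past the threshold was TMPRSS2, an androgen-induced membrane protease, at -0.10, 0 and 0.40 in the controls and -2.20, -1.64 and -1.79 with urolithin A. It fell 3.94-fold (log2 change -1.98, SE 0.17, adjusted p = 0.000451). The membrane proteases HPN and ST14 were among the 15 that did not pass, at 0.20 and -0.15, and PLAU, the urokinase gene, had 0.03.

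None of the 13 measured kallikrein inhibitors passed in limma, with changes from -0.12 to 0.20 and a median of 0.0061. With 5.31% of all genes lower and 4.85% higher, no call among 13 genes is near the background. None of the 13 had an unadjusted p under 0.05. They include SERPINA3 (antichymotrypsin), which binds KLK3 in blood, at -0.02, SERPINA5 (protein C inhibitor) at 0.0097, and SPINT1 and SPINT2, inhibitors of membrane serine proteases, at 0.0061 and 0.12.

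Of 13 measured substrates and receptors of kallikreins, FN1 and DSC1 fell, 2 genes in all, and the other 11 did not pass, beside 5.31% lower and 4.85% higher over all genes. The list's median was -0.08. FN1, the fibronectin gene, stood at -0.0088, 0.17 and -0.09 in the controls and at -0.78, -0.78 and -0.71 with urolithin A, and fell 1.72-fold (log2 change -0.78, SE 0.08, adjusted p = 0.000992). DSC1, a desmosomal cadherin gene of skin, stood at 0, -0.47 and 0.35 in the controls and at -1.35, -1.38 and -1.67 with urolithin A. It fell 2.69-fold in its only probe set, which is named _x_at (log2 change -1.43, SE 0.19, adjusted p = 0.00287), a call lost without moderation (adjusted p = 0.0836). The semenogelin genes SEMG1 and SEMG2 had changes of -0.34 (adjusted p = 0.116, and 0.0406 without control replicate 3) and -0.12, and the kinin receptor gene BDKRB1 had 0.47 (adjusted p = 0.101). In BDKRB1 control replicate 3 stood at 0.60 beside 0 and -0.03, and without that array the gene passed (log2 change 0.68, adjusted p = 0.00515).

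**Figure D4:**
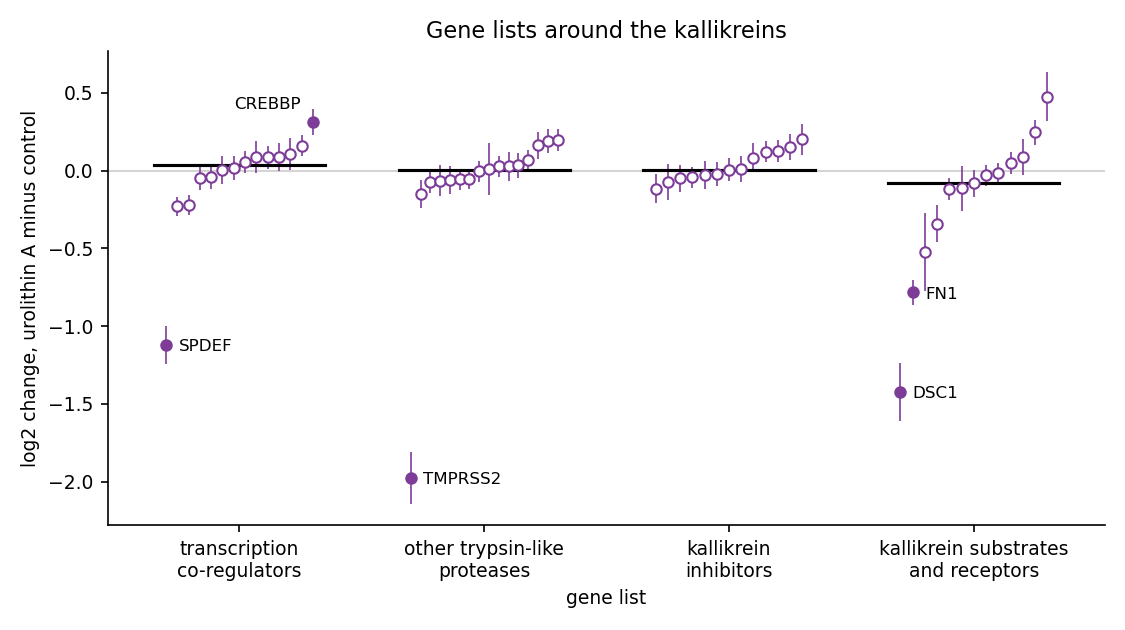
Log2 change, urolithin A minus control (vertical axis, with SE from limma, n = 3 arrays a group), of each measured gene of 4 lists. Filled symbols passed and are named, and bars are list medians, which lie between -0.08 and 0.04. SPDEF, TMPRSS2, FN1 and DSC1 lie below 0 and CREBBP above.

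Outside the family, 1851 genes passed, and those whose 6 array values correlated most closely with KLK3 were ELOVL5, GALNT7, CMC2, LEO1 and GTF3A. The Pearson correlation was 0.999 for ELOVL5, a fatty acid elongase gene, and 0.998 for GALNT7, a gene of O-linked glycosylation. It was 0.997 for CMC2 and 0.996 for GTF3A, a factor of 5S RNA transcription. LEO1, of the PAF1 elongation complex, also had 0.997. ELOVL5 stood at -0.02, -0.0049 and 0.32 in the controls and at -0.92, -0.79 and -0.79 with urolithin A, a 1.91-fold fall. GALNT7 fell 2.14-fold, CMC2 1.62-fold, LEO1 1.34-fold and GTF3A 1.20-fold. The calls of LEO1 (adjusted p = 0.0632) and GTF3A (up to 0.0934) were lost under other settings, for GTF3A without each single array. With 6 arrays in 2 separated groups, such correlations follow the group difference and describe likeness only.

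Markers of cell types were read as differences, since the centred values cannot show which types were present. For comparison, 5.31% of all genes fell and 4.85% rose. Of 8 luminal prostate markers, SLC45A3 and TRPM8, both induced by androgen, fell 2.48-fold and 2.39-fold, FOLH1 rose 1.24-fold and 5 did not pass. These 5 were ACP3, at a log2 change of -0.53 (adjusted p = 0.156 in limma), STEAP2 at 0.13, HOXB13 at 0.05 and the keratin genes KRT8 at 0.13 and KRT18 at -0.07. The summed values of the 8 markers ranged from -0.39 to 0.39 in the controls and from -3.005 to -2.43 with urolithin A. The fall of this sum lay in SLC45A3 (log2 change -1.31), TRPM8 (-1.26) and ACP3, and was not shared by all markers. KRT8, FOLH1, STEAP2 and HOXB13 had changes above 0. None of 5 basal, 9 stromal or endothelial and 6 leukocyte markers passed in limma. In lists this short, that is near the shares over all genes. Of these markers 1, the B cell gene MS4A1, had an unadjusted p under 0.05 in limma. The summed values of the leukocyte markers ranged from -0.21 to 0.26 in the controls and from -0.02 to 1.58 with urolithin A. Their largest values were those of MS4A1 (0.72 and 0.36) and PTPRC (0.41 and 0.40) on urolithin A replicates 2 and 3. The sums of the basal markers ranged from -0.29 to 0.10 in the controls and from -0.37 to 0.01 with urolithin A. The stromal and endothelial sums ranged from -0.18 to 0.30 and from 0.05 to 0.55. The part of these shifts in the kallikrein results was not tested.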

How the data were processed

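RNA of 3 control and 3 urolithin A samples, grouped by their titles, was measured on 6 arrays. The deposited log2 values were made by the authors with RMA (background correction, quantile normalization and summary per probe set), per the submitters' processing notes. Those name no version. In all 49386 probe sets the control median was 0, so the authors' values had been centred on it. The log base was taken as 2, as RMA gives. The build behind the array annotation is not given in the sources used here (promoters are from RefSeq, GRCh38.p14), and batches could not be examined.

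Of the probe sets, 45253 list 1 symbol, 1327 several and 2713 none, besides 93 controls. A gene's value was the mean of its single-symbol probe sets. Each gene, and separately each probe set other than controls, was tested by lmFit and eBayes of limma 3.58.1 (R 4.3.3), with treatment as the model and two-sided p-values, with Benjamini-Hochberg adjustment over the whole table and a threshold of 0.05. The fit was tested on simulated data. Differences between genes used exact permutation tests over arrays. No filter on low values was possible.

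The kallikreins and the gene lists were chosen with earlier results of these data known. Named were every kallikrein, up to 4 passing genes per partner list, locus neighbours up to 5 genes beyond each end, and the 5 passing genes most correlated with KLK3. Other genes were named after their values were seen. Promoters were aligned with Biopython 1.88 (global alignment). Alternatives were a replicate block, the median of probe sets, no _s_at or _x_at probe sets, array weights, a fit without moderation, a prior that was trended and robust, centring on the array median, a stricter adjusted p of 0.01, at least 1.5-fold change and leaving out each array.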

Additional observations from a re-analysis of the deposited data

How the results depend on the processing

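KLK2 and KLK3 passed under all 15 alternatives, at log2 changes from -2.30 to -1.93 and from -1.06 to -0.78, and KLK4 under 14. The 7 other kallikreins passed under none. The count of lower kallikrein genes was 3 in all but the fit without moderation, where it was 2. The count of lower kallikrein probe sets, 22 as reported, was 12 without names ending in _s_at or _x_at, where only 22 probe sets were left to test, and 13 without moderation, where the cause was not tested.

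KLK4 minus KLK3 changed sign with the median of probe sets (-0.12), and ran from -0.017, without urolithin A replicate 2, to 0.11 when single arrays were left out. KLK2 minus KLK3 ran from -1.52 to -0.88 and KLK15 minus KLK3 from 0.58 to 0.86 over their alternatives. The count of risen co-regulators, 1 as reported, was 0 with the replicate block, the median of probe sets, no _s_at or _x_at names, array weights, median centring, no moderation, the trended and robust prior, the threshold of 0.01 and the fold minimum, and ran from 0 to 1 when single arrays were left out. The count of fallen co-regulators was 2 with median centring and with array weights, where PTGES3 was added (adjusted p = 0.0477 and 0.0476), and without moderation PTGES3 (0.0392) took the place of SPDEF. Fallen substrates and receptors numbered 1 without _s_at or _x_at names, which leaves DSC1 with no probe set, and 1 without moderation. They numbered 3 with the replicate block, where IGFBP3 was added (adjusted p = 0.0128), and 3 without control replicate 3, where SEMG1 was added (adjusted p = 0.0406). Risen substrates and receptors ranged from 0 to 1 over the fits that lack an array, the single case being BDKRB1 without control replicate 3. Where no cause is named, the cause was not tested.

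The labels do not say whether equal replicate numbers pair the samples. Deviations of same-numbered arrays correlated at 0.078, 0.022 and 0.196, and those of differently numbered arrays at -0.143 to 0.073. Not every array correlated best with its own number. With 3 arrays a group these correlations cannot decide whether the samples were paired. With the replicate block 3 kallikrein genes and 22 kallikrein probe sets were lower, as without it. IGFBP3 passed only with the block, and KLKP1, CREBBP and GTF3A did not pass with it (adjusted p = 0.0584, 0.0869 and 0.0535). Signal over background cannot be judged from centred values, so small changes of weakly detected kallikreins may not be detectable here.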
